A study of Mus musculus with 12 samples.

Results

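The genes described here encode the proteins that build, fill and release the hormone granules of endocrine cells. The set has 32 genes chosen by name for this function, and 31 of them were measured among the 19938 genes that had a symbol of their own on the arrays. The missing gene is Vamp2, the SNARE of the granule membrane, whose only probe set is shared with another gene and which was not analysed here. RIP1-Tag2 (Rip1Tag2) mice on the C57BL/6 background gave their islets at an age of 8 weeks. RNA from pools of angiogenic or non angiogenic islets was read on 12 Affymetrix mouse gene arrays, 6 for each group. All mice carried the RIP1-Tag2 transgene, which drives the SV40 large T antigen from the rat insulin promoter and so acts in beta cells, and no islets of mice without it were part of the comparison. Islets were freed with collagenase, enriched on a density gradient and sorted by eye into the groups. The sources do not give the size of a pool in mice or islets. The labels give a replicate number and do not say whether each array had a pool of its own. The p-values therefore measure the spread between arrays. The study describes its array values as coming from a pair of independent profiling experiments, and neither it nor the labels say which arrays belong to which. Arrays of a group may therefore not be fully independent of each other. In what follows, a pool stands for the RNA read on a single array. Values are log2 levels after RMA, a method that removes background and scales the arrays to each other, and differences are given on that log2 scale.

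Endocrine cells store peptide hormones in dense core granules. Granins help condense the hormones, proprotein convertases, carboxypeptidase E and an amidating enzyme finish them, and Rab GTPases with their effectors bring the granules to the plasma membrane. There SNARE proteins of the granule and of the plasma membrane zip together, priming factors and complexins hold the complex ready, and synaptotagmins trigger fusion when calcium rises, which in beta cells releases insulin.

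The granule and exocytosis genes differed little in level between angiogenic islets and non angiogenic islets. Rab3b, a small GTPase of secretory vesicles, was the 1 member of 31 that passed the test and it was lower in angiogenic islets. No member was higher, and 30 did not pass (limma, Benjamini-Hochberg adjusted p under 0.05 over all 19938 genes). With replicates 1 to 3 and 4 to 6 as a block, Syt4 and Scg5 passed as well and 3 members were lower. The background without the block was 0.948% of all genes called lower and 3.55% called higher. With the block it was 2.74% lower and 5.88% higher. The median log2 difference of the members, angiogenic minus non angiogenic, was -0.02, and that of all genes was also -0.02. The difference was below 0 in 23 of 31 members (74.2%), beside 59.9% of all genes.

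Taken for each gene on its own and with arrays as independent, the intervals limit the change in array level that could have gone unseen. The 95% interval of the difference included 0 for 23 members, lay inside a 1.2-fold change in either direction for 19 members and inside a 1.5-fold change for all 31. The lowest bound was -0.445, for Rab3b, and the highest was 0.278, for Doc2b. Without adjustment, 6 members were lower and 2 were higher at p under 0.05, beside 6.59% and 7.76% of all genes. Whole islets were profiled, so fewer endocrine cells in a pool and less RNA per endocrine cell cannot be told apart in any of these values.

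**Figure D1:**
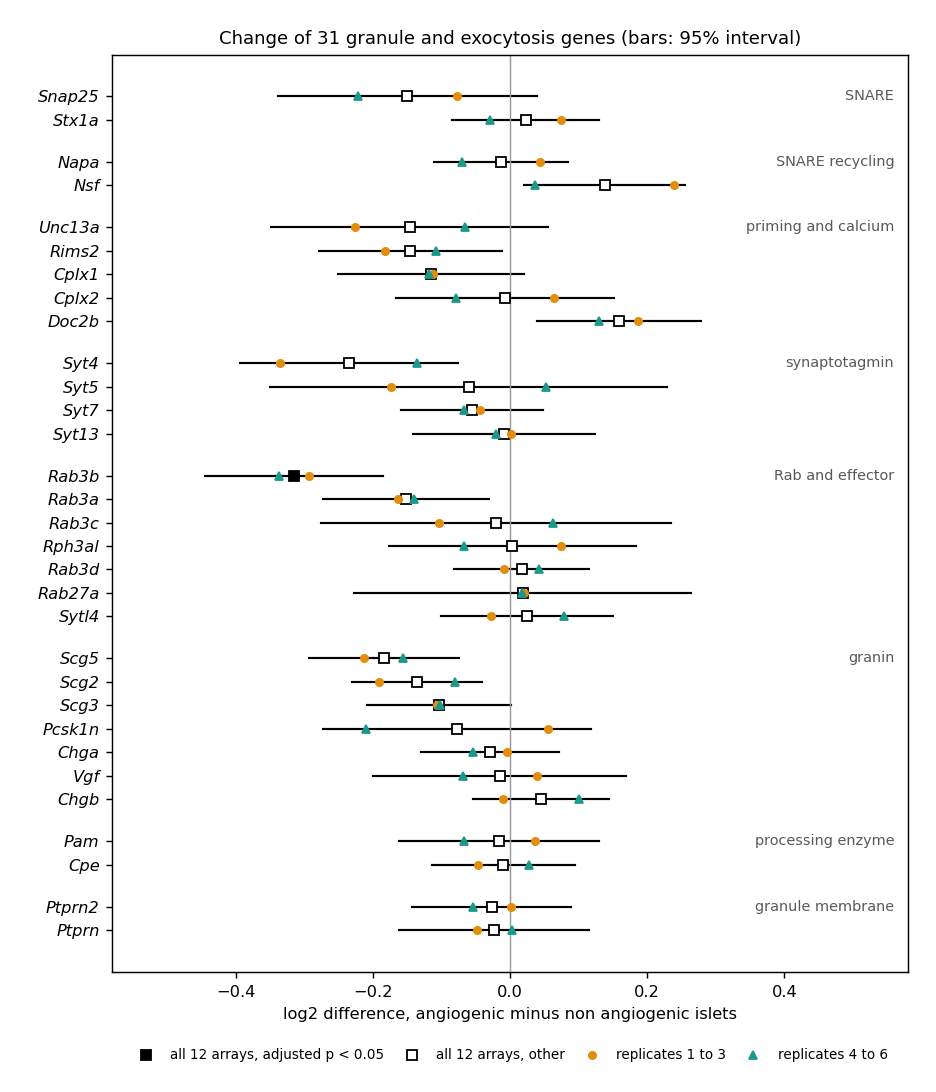
Log2 difference, angiogenic minus non angiogenic islets, for the 31 measured genes grouped by role, with squares for all 12 arrays and bars for the 95% interval. Orange circles give the difference in replicates 1 to 3 and green triangles that in replicates 4 to 6. Rab3b is the 1 filled square, at -0.32, and 19 of the 31 squares lie within 0.1 of 0.

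Among the Rab GTPases and their effectors, Rab3b was the 1 of 7 to pass. On the log2 scale it measured 9.30, 9.09, 9.28, 9.19, 9.29 and 9.12 in angiogenic replicates 1 to 6. It measured 9.43, 9.47, 9.64, 9.48, 9.44 and 9.69 in non angiogenic replicates 1 to 6. Every angiogenic pool was below every non angiogenic pool. The means were 9.21 ± 0.09 in angiogenic islets and 9.53 ± 0.11 in non angiogenic islets (SD, n = 6 each), a log2 difference of -0.32 (SE 0.06, adjusted p = 0.0059) or 0.804 times the non angiogenic level. The fall was about as large in both sets of replicate numbers, -0.29 in replicates 1 to 3 (adjusted p = 0.075) and -0.34 in replicates 4 to 6 (adjusted p = 0.041), in a fit where both sets shared their spread. When each array was centred on its beta cell markers the difference was -0.22 and no longer passed (adjusted p = 0.076). This centring raised the difference of every gene by the same 0.09, since the beta cell markers themselves averaged -0.09.

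The other Rab3 paralogs, which share the guanine nucleotide cycle and much of the sequence of Rab3b, gave no call. Rab3a, the isoform first known from synaptic vesicles, ranged from 9.04 to 9.35 with a median of 9.24 in angiogenic islets, against 9.31 to 9.46 with a median of 9.38 in non angiogenic islets. Its difference of -0.15 (SE 0.06) had an adjusted p of 0.19, and its 95% interval from -0.272 to -0.031 overlapped that of Rab3b, from -0.445 to -0.186. Rab3d averaged 9.56 ± 0.06 in angiogenic islets and 9.55 ± 0.06 in non angiogenic islets (SD, n = 6 each), a difference of 0.02. Rab3c, a dim probe set, averaged 6.61 ± 0.24 in angiogenic islets and 6.63 ± 0.23 in non angiogenic islets, a difference of -0.02 whose 95% interval ran from -0.276 to 0.234. Rab27a, the GTPase that tethers insulin granules through granuphilin, differed by 0.02, granuphilin itself (Sytl4) by 0.02 and the Rab effector Noc2 (Rph3al) by 0.00.

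The promoter of Rab3b is shown because this gene carried the 1 call. RefSeq windows on GRCm38.p6, 250 bases before to 50 bases after a start site, were matched by symbol for 22 of the members. These 22 members had 26 windows, and a member was counted if any of its windows held a match. The share of all windows, here and for the granins, is per window, so the member counts and that share differ in unit. The last 120 bases before the start site of Rab3b, chr4:108878950-108879069 on the plus strand, read as follows, with a TATAAA match in capitals.
Rab3b: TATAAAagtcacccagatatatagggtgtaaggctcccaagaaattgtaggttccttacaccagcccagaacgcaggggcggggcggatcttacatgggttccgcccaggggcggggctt
The 6 letters TATAAA, searched on both strands, were found in 2 of the 22 members with a window, Rab3b at 120 bases before the start and Chga at 5 bases after it, and in 13.6% of all 32851 windows. The match in Rab3b lies far from the usual place of a TATA box close to the start.

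**Figure D2:**
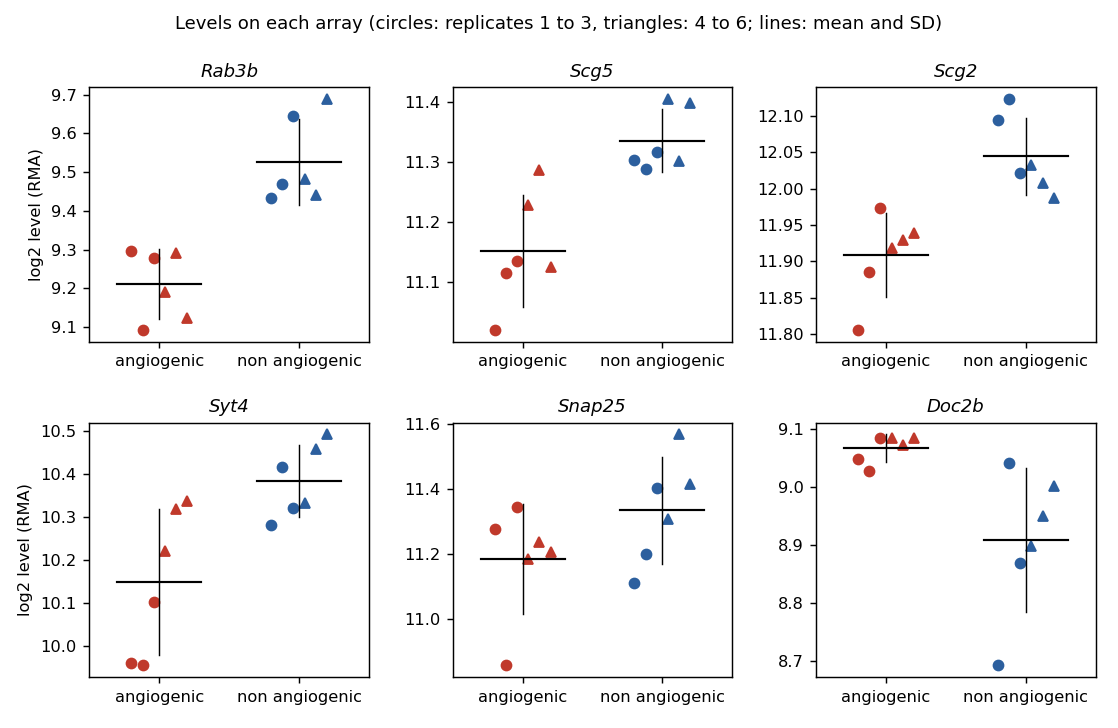
Log2 levels of 6 genes on each array, angiogenic islets in red on the left and non angiogenic islets in blue on the right, with the mean and SD as black lines and a scale of its own in each panel. The groups separate without overlap for Rab3b, Scg5 and Scg2, whereas Syt4, Snap25 and Doc2b overlap.

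Among the granins, 6 of 7 had a difference below 0, beside 59.9% of all genes, and none passed. Secretogranin V (Scg5, the 7B2 chaperone of the convertase PC2) was nearest to a call. It measured 11.02, 11.12, 11.14, 11.23, 11.29 and 11.12 in angiogenic replicates 1 to 6, against 11.30, 11.29, 11.32, 11.40, 11.30 and 11.40 in non angiogenic replicates 1 to 6. The highest angiogenic pool was just under the lowest non angiogenic pool. The means were 11.15 ± 0.09 in angiogenic islets and 11.34 ± 0.05 in non angiogenic islets (SD, n = 6 each), a difference of -0.18 (SE 0.05, adjusted p = 0.058). With replicates 1 to 3 and 4 to 6 as a block, Scg5 passed (adjusted p = 0.013), and in all it gained a call under 9 of 26 alternatives. When each array was centred on its beta cell markers its difference was -0.09 (adjusted p = 0.49).

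Secretogranin II (Scg2) also showed no overlap between groups. Its levels ran from 11.81 to 11.97 with a median of 11.92 in angiogenic islets, against 11.99 to 12.12 with a median of 12.03 in non angiogenic islets. The difference was -0.14 (SE 0.04, adjusted p = 0.12), and -0.042 with the beta cell centring (adjusted p = 0.82). In all, 3 members (Rab3b, Scg5 and Scg2) lay below the non angiogenic range on every angiogenic array, where 0.923% of all genes did so and 2.85% lay above. Secretogranin III (Scg3), which anchors chromogranin A to the granule membrane, differed by -0.10 (SE 0.05, adjusted p = 0.35).

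The chromogranins, the most widely used markers of neuroendocrine cells, were at like levels in both groups. Chromogranin A (Chga) measured 13.49, 13.39, 13.46, 13.49, 13.50 and 13.54 in angiogenic replicates 1 to 6 and 13.50, 13.46, 13.39, 13.54, 13.58 and 13.58 in non angiogenic replicates 1 to 6. Its difference was -0.03 (SE 0.05, adjusted p = 0.87), with a 95% interval from -0.13 to 0.072. Chromogranin B (Chgb) measured 12.50, 12.57, 12.49, 12.64, 12.58 and 12.60 in angiogenic replicates 1 to 6 and 12.43, 12.60, 12.56, 12.52, 12.45 and 12.54 in non angiogenic replicates 1 to 6. Its difference was 0.05 (SE 0.05, adjusted p = 0.77), with a 95% interval from -0.054 to 0.145. The groups overlapped along most of their range for both genes. Vgf, a granin-like prohormone, differed by -0.02, and Pcsk1n, the proSAAS precursor that inhibits the convertase PC1/3, by -0.08 (SE 0.09, adjusted p = 0.81).

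The granin promoters are shown because some granins, among them Chgb and Scg2, are known for a cyclic AMP response element close to the start, and because 2 of these genes separated the groups while 2 did not. The full element TGACGTCA is a palindrome, the same on both strands, and contains the shorter site TGACG on each strand. It was found in 3 of the 22 members with a window, Scg2 at 68, Chgb at 72 and Napa at 7 bases before the start, and in 1.79% of all windows. The shorter site TGACG, counted on both strands and including these, was found in 14 of the 22 members and in 20.8% of all windows. The RE1 element, the site read by the neuronal repressor REST, was searched only as a fixed pattern of 15 letters. That pattern was found in 0 of the 22 members and in 0.0365% of all windows (12 of 32851). It is so rare that its absence from 22 members was likely in advance. The search therefore cannot tell whether the members have RE1 sites, and sites that depart from the pattern or lie outside the windows were not searched. The 120 bases before each start site follow, with the full element in capitals for Scg2 and Chgb, the shorter site in capitals for Chga, and no capitals for Scg5. They lie on GRCm38.p6 at chr1:79440027-79440146 (minus strand, Scg2), chr2:132781522-132781641 (plus strand, Chgb), chr12:102554821-102554940 (plus strand, Chga) and chr2:113829092-113829211 (minus strand, Scg5).
Scg2: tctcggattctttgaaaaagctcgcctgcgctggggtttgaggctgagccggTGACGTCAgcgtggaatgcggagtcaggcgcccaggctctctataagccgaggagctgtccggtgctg
Chgb: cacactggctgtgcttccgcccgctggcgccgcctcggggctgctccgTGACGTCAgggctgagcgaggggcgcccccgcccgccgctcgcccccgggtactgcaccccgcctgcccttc
Chga: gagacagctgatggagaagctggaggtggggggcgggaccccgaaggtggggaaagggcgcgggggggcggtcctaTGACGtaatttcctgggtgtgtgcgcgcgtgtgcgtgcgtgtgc
Scg5: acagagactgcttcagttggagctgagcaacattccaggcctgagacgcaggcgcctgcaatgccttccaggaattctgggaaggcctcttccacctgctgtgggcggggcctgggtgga
Scg2 and Chgb share the full element at nearly the same distance, and their differences between the groups were -0.14 and 0.05. Neither difference passed, and a part of the element in them was not tested.

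The synaptotagmins bind granule membranes, and several of them act as the calcium sensors of fusion. All 4 had a difference below 0, beside 59.9% of all genes, and none passed over the 12 arrays. Syt4, an atypical synaptotagmin of maturing beta cells, measured 9.96, 9.95, 10.10, 10.22, 10.32 and 10.34 in angiogenic replicates 1 to 6. It measured 10.28, 10.42, 10.32, 10.33, 10.46 and 10.49 in non angiogenic replicates 1 to 6. Angiogenic replicates 1 to 4 were below the whole non angiogenic range, and angiogenic replicates 5 and 6 were inside it. The means were 10.15 ± 0.17 in angiogenic islets and 10.38 ± 0.08 in non angiogenic islets (SD, n = 6 each), a difference of -0.24 (SE 0.07, adjusted p = 0.10). In replicates 1 to 3 the difference was -0.33 and passed (adjusted p = 0.011), in replicates 4 to 6 it was -0.14 and did not (adjusted p = 0.40). The test of the change in replicates 4 to 6 minus that in replicates 1 to 3 gave 0.20 for Syt4 (adjusted p = 0.78). With replicates 1 to 3 and 4 to 6 as a block, Syt4 passed (adjusted p = 0.011), whereas with the beta cell centring its difference was -0.14 (adjusted p = 0.33).

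Syt7, a calcium sensor of insulin granules, differed by -0.06 (SE 0.05, adjusted p = 0.71), and Syt13, a synaptotagmin that lacks the calcium-binding residues, by -0.01 (SE 0.06, adjusted p = 0.98). Syt5 was the most variable of the 4, with 10.20 ± 0.20 in angiogenic islets and 10.26 ± 0.33 in non angiogenic islets (SD, n = 6 each). Its difference of -0.06 had a 95% interval from -0.35 to 0.229.

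The SNAREs of the plasma membrane did not pass. Snap25 measured 11.28, 10.86, 11.35, 11.18, 11.24 and 11.20 in angiogenic replicates 1 to 6, against 11.11, 11.20, 11.40, 11.31, 11.57 and 11.41 in non angiogenic replicates 1 to 6. The groups overlapped, and angiogenic replicate 2 was the lowest of the 12 pools. The difference was -0.15 (SE 0.09, adjusted p = 0.51). Syntaxin 1A (Stx1a) measured 8.23, 8.30, 8.20, 8.15, 8.20 and 8.35 in angiogenic replicates 1 to 6, against 8.16, 8.19, 8.17, 8.27, 8.19 and 8.33 in non angiogenic replicates 1 to 6. Its groups covered the same range, with a difference of 0.02 (SE 0.05, adjusted p = 0.92).

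The ATPase Nsf, which takes spent SNARE complexes apart, leaned the other way. It ranged from 10.13 to 10.37 with a median of 10.22 in angiogenic islets, against 9.96 to 10.20 with a median of 10.11 in non angiogenic islets. Its difference of 0.14 (SE 0.05) did not pass (adjusted p = 0.23), and it came to 0.24 in replicates 1 to 3 and 0.04 in replicates 4 to 6. Napa, the alpha-SNAP adaptor that brings Nsf to the complex, differed by -0.01 (SE 0.05, adjusted p = 0.95).

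Of the 5 genes for priming and clamping, none passed and 4 had a difference below 0, beside 59.9% of all genes. Unc13a, which opens syntaxin for assembly, differed by -0.15 (SE 0.09, adjusted p = 0.56) in its brightest probe set and by -0.22 and -0.10 in its other 2 probe sets. Rims2, the scaffold that links Rab3 to the release site, differed by -0.15 (SE 0.06, adjusted p = 0.28). The complexins Cplx1 and Cplx2, which clamp the assembled SNAREs, differed by -0.12 (SE 0.06, adjusted p = 0.46) and by -0.01 (SE 0.07, adjusted p = 0.98). Doc2b, a high-affinity calcium sensor for spontaneous and glucose-stimulated release, had the highest positive difference of the members. It ranged from 9.03 to 9.09 with a median of 9.08 in angiogenic islets, against 8.69 to 9.04 with a median of 8.93 in non angiogenic islets. The difference was 0.16 (SE 0.06, adjusted p = 0.16). Non angiogenic replicate 2 alone reached into the angiogenic range. With each array centred on its beta cell markers Doc2b passed at 0.25 (adjusted p = 0.037). That value includes the shift of 0.09 that this centring gives to every gene, so it is no separate evidence on Doc2b.

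The enzymes and membrane proteins of the granule gave differences close to 0. Carboxypeptidase E (Cpe), which trims basic residues from cut prohormones, averaged 12.54 ± 0.09 in angiogenic islets and 12.55 ± 0.05 in non angiogenic islets (SD, n = 6 each), a difference of -0.01. The amidating enzyme Pam differed by -0.02. The receptor phosphatase family members Ptprn (IA-2) and Ptprn2 (phogrin), islet autoantigens that sit in the granule membrane, differed by -0.02 and -0.03. The adjusted p of these 4 genes ran from 0.91 to 0.97.

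The replicates were also read within their numbers. In replicates 1 to 3, Syt4 was the 1 member called lower, beside 0.878% of all genes lower and 3.26% higher. In replicates 4 to 6, Rab3b was the 1 member called lower, beside 0.918% lower and 3.21% higher. The difference was below 0 in both sets for 12 of 31 members (38.7%), beside 36.9% of all genes. It was above 0 in both sets for 3 of 31 members, beside 4752 of all 19938 genes. No difference of the change between the sets was called for any member, in a test with 3 arrays of each group in a set that called 0.00502% of all genes. The lowest adjusted p was 0.777 and the estimates ran from -0.266 to 0.226, with 1 member (Nsf, 3.23%) at an unadjusted p under 0.05, beside 6.41% of all genes. With the sets as a block, 0 members were higher and 3 were lower (Rab3b, Syt4 and Scg5), beside 5.88% of all genes higher and 2.74% lower.

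More members were called between the sets of replicate numbers than between the groups. With group in the fit, 10 members were higher and 4 were lower in replicates 4 to 6 than in replicates 1 to 3. These were 32.3% and 12.9% of the members, against a background of 18% of all genes higher and 18.8% lower. The labels do not say what distinguishes replicates 1 to 3 from replicates 4 to 6. Markers of several cell types also differed between the sets, with 4 of 12 acinar genes (median difference 1.14), 6 of 12 macrophage genes (0.19) and 5 of 12 beta cell genes (0.12) higher in replicates 4 to 6. With the mean of the acinar markers on each array as a covariate, 5 members were higher and 3 were lower there. The share of all genes called in that fit is not given, so the lower counts cannot be read as particular to the members.

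Rab27a gave the clearest of these differences. It ranged from 10.98 to 11.20 with a median of 11.08 in replicates 4 to 6, against 10.62 to 10.74 with a median of 10.69 in replicates 1 to 3. The difference was 0.39 (SE 0.05, adjusted p = 3.5e-05). It showed in both islet groups alike, since the difference between angiogenic and non angiogenic islets was 0.02 in each set. Rab3c (0.31), Rph3al (0.21), Pcsk1n (0.21), Syt4 (0.19), Pam (0.18), Syt13 (0.17), Sytl4 (0.14), Ptprn2 (0.12) and Cpe (0.10) were also higher in replicates 4 to 6. Syt5 (-0.33), Unc13a (-0.23), Vgf (-0.23) and Ptprn (-0.16) were lower there. The sets did not overlap for 5 members (Rab27a, Syt13, Cpe, Pam and Sytl4, all higher in replicates 4 to 6), where 12.6% of all genes had no overlap in either direction.

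**Figure D3:**
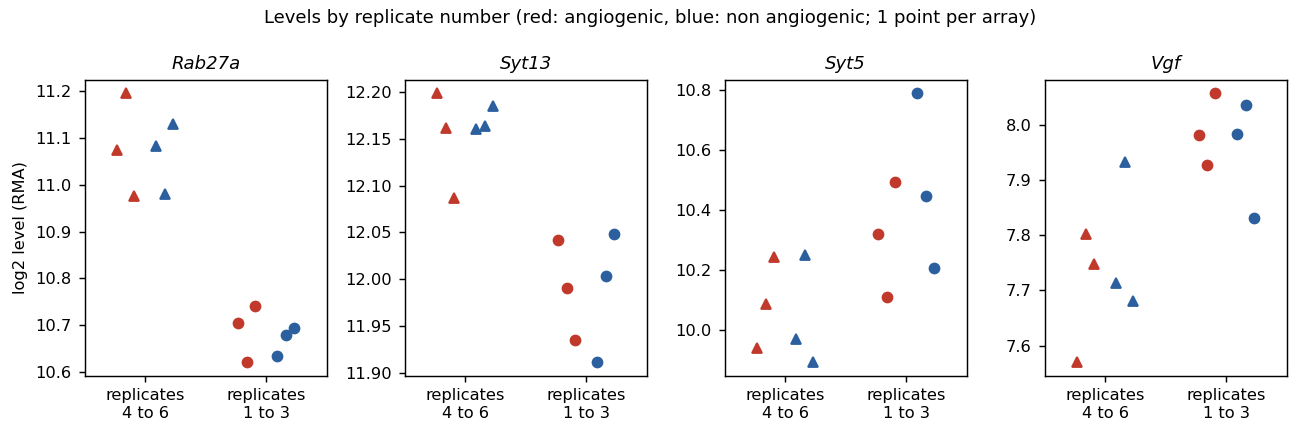
Log2 levels of 4 genes on each array by replicate number, replicates 4 to 6 on the left and replicates 1 to 3 on the right, with angiogenic pools in red and non angiogenic pools in blue and a scale of its own in each panel. Rab27a and Syt13 are higher in replicates 4 to 6 without overlap, and Syt5 and Vgf are lower there with overlap, while red and blue points mix within each set.

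Further genes of the pathway were read from lists chosen by function. Of 67 such genes 65 were measured, 1 was higher and 2 were lower in angiogenic islets, and 62 did not pass. Of all genes 3.55% were higher and 0.948% lower. The median difference of the 65 genes was -0.05, beside -0.02 for all genes. Rab3il1, an exchange factor that activates Rab3, ranged from 8.14 to 8.31 with a median of 8.20 in angiogenic islets, against 7.89 to 8.04 with a median of 7.96 in non angiogenic islets. The groups did not overlap, and the difference was 0.25 (SE 0.05, adjusted p = 0.0046), with 0.23 in replicates 1 to 3 and 0.27 in replicates 4 to 6. It was the 1 of 21 further Rabs, effectors and release site proteins to pass, and its direction was opposite to that of Rab3b. Which cells of the whole islets gave either difference was not tested.

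Stxbp5l (tomosyn-2), an inhibitor of SNARE assembly, was the 1 of 15 further SNAREs and regulators to pass. It averaged 8.70 ± 0.16 in angiogenic islets and 8.97 ± 0.09 in non angiogenic islets (SD, n = 6 each), a difference of -0.27 (SE 0.07, adjusted p = 0.045), with overlap between the groups. Replicates 1 to 3 gave -0.14 for this gene and replicates 4 to 6 gave -0.40. Resp18, an endocrine granule protein related to the lumenal part of Ptprn, was the 1 of 17 further granule content and processing genes to pass. It ranged from 12.20 to 12.22 in angiogenic islets, against 12.32 to 12.47 in non angiogenic islets, a difference of -0.18 (SE 0.04, adjusted p = 0.029). Neither Stxbp5l nor Resp18 passed when each array was centred on its beta cell markers. None of 12 further calcium sensors and priming factors passed, and the 2 farthest from 0 were Syt1 at -0.24 (SE 0.15, adjusted p = 0.54) and Cadps at -0.14 (SE 0.05, adjusted p = 0.13).

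Markers of the cells in the pools were read beside the members. The labelled islet tissue carried its endocrine genes at high levels, with a mean beta cell marker level of 11.56 ± 0.06 in angiogenic islets and 11.65 ± 0.10 in non angiogenic islets (SD, n = 6 each). Of 12 beta cell markers measured 1 was lower (Ucn3, -0.25) and none was higher, with a median difference of -0.05. Delta and PP cell markers averaged 10.74 ± 0.14 in angiogenic islets and 11.09 ± 0.09 in non angiogenic islets, with 2 of 5 lower (Sst at -0.74 and Pyy at -0.56), and of 3 alpha cell markers measured Gcg was lower (-0.26). Stromal markers moved the other way, with 10 of 12 endothelial, 9 of 10 pericyte and smooth muscle, 9 of 10 fibroblast and 9 of 12 macrophage genes higher in angiogenic islets. Their median differences were 0.51, 0.64, 1.16 and 0.53. The mean of the 31 members ranged from 10.45 to 10.54 on angiogenic arrays and from 10.52 to 10.61 on non angiogenic arrays. Centring each array on its beta cell markers moved the differences of Rab3b, Syt4, Scg5 and Scg2 to -0.22, -0.14, -0.09 and -0.042, all still below 0 and none past the threshold. Every gene moved by the same 0.09 under this centring. The part of the stromal markers in these differences was not tested.

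Acinar markers, which track exocrine tissue left on the islets, ranged over arrays from 7.70 to 10.82 in angiogenic islets and from 7.51 to 11.96 in non angiogenic islets, and 0 of 12 passed. With their mean on each array as a covariate, Rab3b was still lower by 0.31 (adjusted p = 0.0081).

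**Figure D4:**
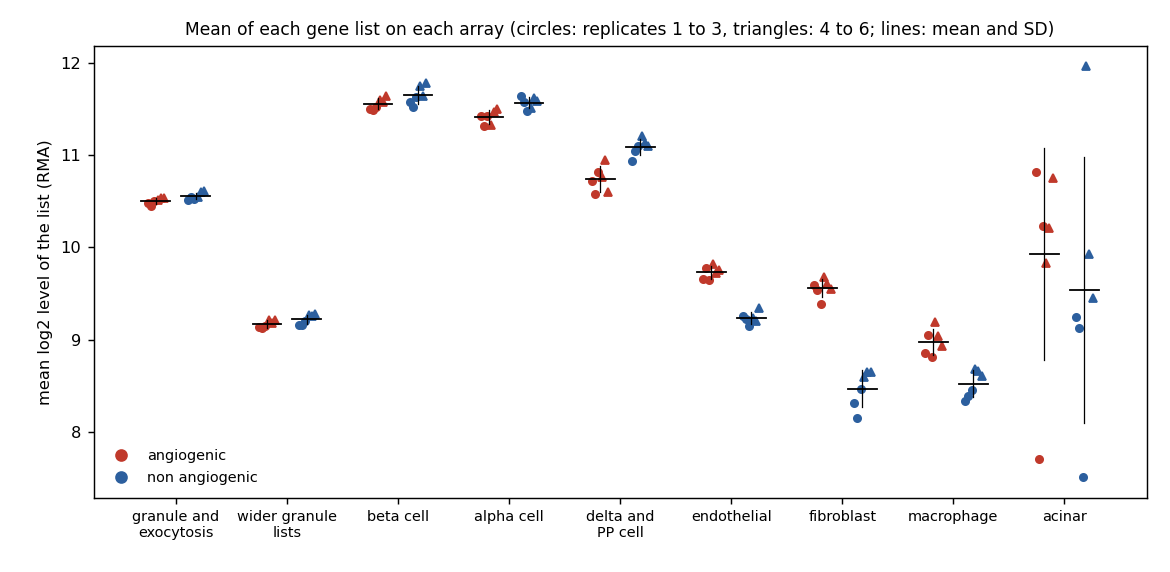
Mean log2 level of each gene list on each array, angiogenic islets in red left of non angiogenic islets in blue, with the mean and SD as black lines. The granule and exocytosis genes lie at 10.51 ± 0.03 in angiogenic islets and 10.56 ± 0.04 in non angiogenic islets, the fibroblast markers lie at 9.56 ± 0.10 in angiogenic islets and 8.47 ± 0.20 in non angiogenic islets, and the height of a list cannot be set against that of another list because its probes differ.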

How the data were processed

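The values were log2 expression levels of 35556 transcript clusters on 12 arrays, made by the authors with RMA in Affymetrix Expression Console and deposited as 1 table; RMA had background-corrected and normalized the arrays together, and their versions are not stated. Array medians lay between 7.30 and 7.38. Depth has no meaning for arrays, and the number of arrays limits the precision. Platform annotation gave 1 symbol to 21789 clusters, several to 1621 and none to 12146. The brightest cluster by mean was kept per gene (19938 genes, 999 with several clusters). The members and gene lists were chosen with earlier results of these data known.

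Groups and replicate numbers came from the labels. Differences were fitted with limma 3.58.1 in R 4.3.3 (lmFit, eBayes, two-sided, Benjamini-Hochberg over all genes, threshold 0.05), over all 12 arrays, then within replicates 1 to 3 and 4 to 6, as their interaction, and between these sets with group as a term. The fits were tested on simulated data. No array was a duplicate of another (r at least 0.986 within a group and at most 0.998 between any arrays). All members are named. Values per array are given for members called over all arrays or with the sets as a block, and for Snap25, Stx1a, Chga and Chgb. The further genes named were those past the threshold, or the 2 farthest from 0 in a list without any. Ranges were added for Scg2, Doc2b, Nsf, Rab3a and Rab27a after their values were seen. Alternatives were the t-test named in the methods, a variance trend, array weights, 3 other scalings, a filter on dim genes, the mean of clusters, blocks, an acinar covariate and leaving out each array. Promoters came from RefSeq (GRCm38.p6).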

Additional observations from a re-analysis of the deposited data

Results flagged for a closer look

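In 3 of 62 sets of 6 arrays (31 members in each islet group) 1 array lay far from the others, judged by its gap to the nearest array over the range of the set (Dixon's 95% critical value). Chance gives such a gap in about 1 set in 20. Snap25 was low in angiogenic replicate 2, at 10.86 with the nearest array at 11.18 (gap over range 0.669). Rph3al was low on the same array, at 10.57 with the nearest at 10.91 (0.834). Napa was low in angiogenic replicate 4, at 11.38 with the nearest at 11.44 (0.638). Angiogenic replicate 2 also had the lowest acinar marker mean of its group, at 7.70. None of these 3 genes passed the comparison of the groups.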

How the results depend on the processing

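Rab3b was below 0 under all 26 alternatives and lost its call under 3, centring on beta cell markers (adjusted p = 0.076), replicates 1 to 3 alone (0.12) and replicates 4 to 6 alone (0.054). Without any 1 array its adjusted p stayed between 0.0076 and 0.019. Over 804 pairs of a member and an alternative, 780 kept their side of the threshold and 21 gained a call (8 of them with the t-test of the methods unadjusted). Pairs that lost a call numbered 3, and 0 reversed one. Signs of uncalled members are not part of this count. Small differences changed sign between alternatives, as for Rph3al (below 0 in 13 of 26) and Cpe (below 0 in 21 of 26). Against 1 member lower, the counts were 3 with the methods' t-test adjusted, 7 lower and 2 higher with it unadjusted, 2 with an intensity trend, median centring, quantile normalization or no dim genes, 0 lower and 1 higher (Doc2b) with beta cell centring, 3 with replicates 1 to 3 and 4 to 6 as a block, 0 in replicates 4 to 6 alone, and 1 to 2 when 1 array was left out (2 without angiogenic replicate 5, where Scg5 passed at 0.034). The median difference was 0.071 with beta cell centring, which shifts the median of all genes by 0.09, and -0.067 in replicates 4 to 6 alone. Leaving out 1 array kept it between -0.04 and -0.01. Apart from the sets as a block, the share of all genes called is not given for these alternatives. Changes in the counts here and in the next paragraph can therefore not be read as particular to the members or lists.

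The wider lists had 2 lower and 1 higher, against 14 lower with the unadjusted t-test, 0 lower with beta cell centring, 5 lower with the sets as a block, 0 lower and 0 higher in replicates 1 to 3 alone, and 4 lower and 0 higher in replicates 4 to 6 alone. Between the sets, 10 members higher became 5 with the acinar covariate and 6 to 10 without 1 array (6 without angiogenic replicate 4), and the lower count stayed at 4 without any 1 array. No interaction of a member passed under the alternatives run for it.

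The replicate numbers were not taken to pair the samples. The deviations of same-numbered arrays correlated at 0.0276 for replicate 3 and between 0.304 and 0.538 for the others, these fell to between -0.337 and 0.123 once the means of replicates 1 to 3 and 4 to 6 were removed, and only replicates 1 and 4 matched best with their own number. With the replicate number as a block 3 members were lower (Rab3b, Syt4 at adjusted p = 0.024 and Scg5 at 0.041). With 6 pools a group the precision was lowest for the variable members, and the 95% interval of the log2 difference ran from -0.276 to 0.234 for Rab3c and from -0.35 to 0.229 for Syt5.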
